A study of Drosophila melanogaster with 2 samples.

Results

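The cytosolic ribosomal protein genes encode the protein parts of the ribosome that works in the cytoplasm. They were taken as the protein-coding genes of Ensembl release 115 (BDGP6.54, main chromosomes) whose names start with RpL or RpS and a digit, or with RpLP. This gave 92 genes of 13968 protein-coding genes, 54 of the large subunit and 38 of the small subunit by name. The rule goes by name alone, so genes named as -like stay in all counts. Among them is RpL24-like, which corresponds to an assembly factor rather than to a ribosomal protein. The study mapped binding of the protein encoded by CG6276 by ChIP-seq, in which chromatin bound by a protein is precipitated and its DNA sequenced. Whole Drosophila melanogaster prepupae of a transgenic line (CG6276-GFP) were used, males and females pooled, in which CG6276 carries green fluorescent protein at its C-terminus, and the precipitating antibody was raised against GFP. The labels give an age of 72 days, which is far longer than a fly takes to reach the prepupa. All animals carried the transgene, and the labels number the 2 libraries as biological replicates 2 and 4 of that line, so conditions were not compared. Whole animals mix all tissues, so a peak cannot be assigned to a cell type.

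Ribosomal protein genes are among the most highly transcribed genes of growing cells, and their outputs must be kept in proportion because each ribosome needs 1 copy of nearly every protein. In Drosophila many of them lack a standard initiator and start transcription at a pyrimidine-rich TCT initiator. Their promoters are known to be bound by M1BP and DREF, which recognise Motif 1 and the DNA replication-related element (DRE), and to use the TBP-related factor Trf2 rather than TBP.

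The stretch around the transcription start is shown for members with a peak and for members without one, because most summits described below lay close to a start. Each line runs 5′ to 3′ in the direction of transcription over 130 bases, 100 before the start of the Ensembl canonical transcript and 30 from it on, read from the RefSeq Release 6 genome, the sequence of build dm6. Capitals mark the TCT initiator (CTTT with a pyrimidine on each side, reading along the gene, its first C within 5 bp of the start), the DRE (TATCGATA) and the word CAGTG on either strand (CACTG when read backwards). Overlapping matches run together. Shown first are members with a promoter peak that passed the authors' reproducibility threshold (described below), most of them holding at least 1 of these words.
RpS6 (chrX:7901302-7901431, minus strand): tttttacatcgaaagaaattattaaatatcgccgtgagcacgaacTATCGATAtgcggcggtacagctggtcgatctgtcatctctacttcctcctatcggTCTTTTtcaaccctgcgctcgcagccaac
RpLP0 (chr3L:22075767-22075896, plus strand): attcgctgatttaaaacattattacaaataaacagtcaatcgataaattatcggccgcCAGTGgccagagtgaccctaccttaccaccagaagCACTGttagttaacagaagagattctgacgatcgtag
RpS19a (chrX:16637794-16637923, plus strand): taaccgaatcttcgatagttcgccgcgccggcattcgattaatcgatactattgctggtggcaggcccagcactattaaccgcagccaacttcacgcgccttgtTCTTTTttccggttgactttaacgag
RpL8 (chr3L:2587356-2587485, plus strand): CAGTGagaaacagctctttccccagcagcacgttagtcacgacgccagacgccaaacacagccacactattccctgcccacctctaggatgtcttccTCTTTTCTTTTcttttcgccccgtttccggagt
RpL4 (chr3R:27922721-27922850, plus strand): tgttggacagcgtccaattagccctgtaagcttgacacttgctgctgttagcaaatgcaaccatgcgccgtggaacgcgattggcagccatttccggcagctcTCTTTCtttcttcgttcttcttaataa
RpS3A (chr4:67178-67307, minus strand): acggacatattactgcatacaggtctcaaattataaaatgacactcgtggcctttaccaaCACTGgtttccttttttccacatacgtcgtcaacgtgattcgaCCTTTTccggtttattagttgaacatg
RpS3 (chr3R:23358712-23358841, plus strand): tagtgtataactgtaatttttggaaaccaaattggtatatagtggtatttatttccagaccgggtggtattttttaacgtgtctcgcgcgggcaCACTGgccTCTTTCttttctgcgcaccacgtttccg
RpS12 (chr3L:13023252-13023381, plus strand): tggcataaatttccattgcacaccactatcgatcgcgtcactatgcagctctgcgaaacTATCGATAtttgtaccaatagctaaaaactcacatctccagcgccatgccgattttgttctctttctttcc
RpL22 (chrX:765101-765230, minus strand): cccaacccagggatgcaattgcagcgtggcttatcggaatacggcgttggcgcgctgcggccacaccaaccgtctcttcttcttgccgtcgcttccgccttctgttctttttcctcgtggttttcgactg
The following members had no promoter peak in any list. RpS19b and RpS10a are further copies of RpS19a and RpS10b, and RpL24-like is related to RpL24.
RpS19b (chr3R:23933501-23933630, minus strand): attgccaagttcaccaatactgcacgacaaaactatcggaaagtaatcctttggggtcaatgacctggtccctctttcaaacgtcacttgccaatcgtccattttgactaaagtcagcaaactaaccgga
RpS10a (chr3R:27652660-27652789, plus strand): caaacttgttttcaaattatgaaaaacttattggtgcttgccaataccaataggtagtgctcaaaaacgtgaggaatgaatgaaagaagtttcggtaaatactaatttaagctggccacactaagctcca
RpL24-like (chr3R:11431553-11431682, minus strand): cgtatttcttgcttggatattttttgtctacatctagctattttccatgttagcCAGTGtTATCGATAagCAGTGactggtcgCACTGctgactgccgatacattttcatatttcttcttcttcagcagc
The next members also had no promoter peak in any list but hold the TCT initiator, as some of the bound ones do.
RpL14 (chr3L:8600906-8601035, plus strand): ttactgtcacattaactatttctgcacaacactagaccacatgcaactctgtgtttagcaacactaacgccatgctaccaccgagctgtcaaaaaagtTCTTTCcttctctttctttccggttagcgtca
RpL27 (chr3R:25685022-25685151, minus strand): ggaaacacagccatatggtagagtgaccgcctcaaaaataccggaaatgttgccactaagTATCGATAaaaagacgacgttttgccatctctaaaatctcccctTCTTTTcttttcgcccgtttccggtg
RpL35 (chrX:5672634-5672763, plus strand): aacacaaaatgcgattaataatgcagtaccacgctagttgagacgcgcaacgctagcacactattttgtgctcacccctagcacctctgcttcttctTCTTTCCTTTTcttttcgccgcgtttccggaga
These members were chosen to show the words, so the lines above do not compare bound with unbound members; the counts over all 92 members are given with the motifs further on. By these definitions words were also missing at bound members, as the stretch of RpL22 shows. That stretch does hold TCTTTT, but with its C just past the 5 bp limit.

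A gene was counted as bound when a peak summit lay within 500 bp of any of its annotated transcript starts. Peaks came from 4 lists. Each replicate list and the pooled list held 30000 entries, background included, and 7326 pooled peaks passed the authors' irreproducible discovery rate (IDR) procedure, which keeps peaks that rank alike in both replicates. Sequencing depth is unknown, and no control library was analysed here, so the intervals below cover the counting of genes only. Genes share peaks and neighbourhoods and are not replicates, so members are described beside all protein-coding genes and no test of the difference was run.

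Ribosomal protein genes had an IDR promoter peak at 21 of 92 members (22.8%, 95% Wilson interval 15.4% to 32.4%), against 13.2% of all protein-coding genes (1842 of 13968). In the pooled list 34 members had one (37.0%), against 24.5% of all protein-coding genes. Replicate 2 had peaks at 39 members (42.4%), against 28.6%, and replicate 4 at 32 members (34.8%), against 25.1%. Both replicate lists had a peak at 30 members (32.6%, interval 23.9% to 42.7%), against 20.4% of all protein-coding genes. The members' share was thus above the background in all 4 lists. No promoter peak was found in any of them at 51 of 92 members. The same share over all protein-coding genes was not counted, so that number is not read as a trait of the members. Among strong peaks the members' share was not above the background. In the stronger 3663 peaks of the IDR list 3 of 92 members were bound (RpL31, RpL24 and RpS15), against 8.05% of all protein-coding genes. That count is small and no interval was computed for it.

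**Figure D1:**
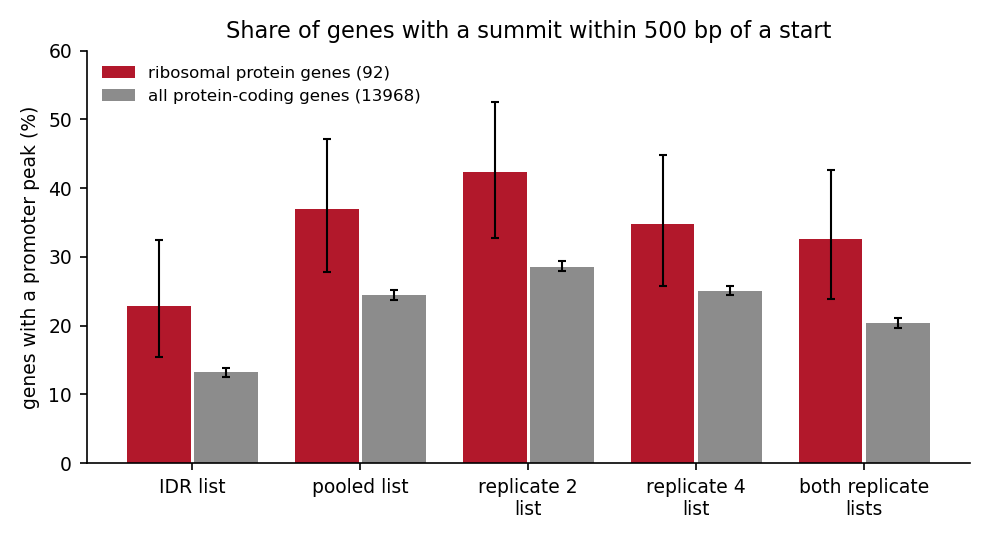
Bars give the percentage of genes with a summit within 500 bp of a start, for the 92 ribosomal protein genes (red) and all 13968 protein-coding genes (grey), in each peak list. Error bars are 95% Wilson intervals. The red bar is higher in each list, from 22.8% against 13.2% in the IDR list to 42.4% against 28.6% in replicate 2.

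The bound members came from both subunits and from several parts of the ribosome. Of the small-subunit genes 11 of 38 were bound (28.9%, interval 17.0% to 44.8%) and of the large-subunit genes 10 of 54 (18.5%, interval 10.4% to 30.8%), with intervals that overlap widely. The median signal value, the authors' score for the height of a peak, was 214.9 in the small and 208.9 in the large subunit. The bound small-subunit genes were RpS15, RpS6, RpS19a, RpS15Aa, RpS10b, RpS7, RpS23, RpS3A, RpS3, RpS21 and RpS12. Those of the large subunit were RpL31, RpL24, RpL41, RpLP0, RpL30, RpL23, RpL8, RpL22, RpL4 and RpL17.

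RpL31, whose protein sits beside the tunnel through which the new protein leaves, had the strongest peak (chromosome 2R, 9587117 to 9587296; all positions are on dm6). Its signal value was 401.1 in the IDR list, and its values in the replicate lists were 205.6 in replicate 2 and 201.3 in replicate 4, ranked 2104 and 1964. It was the only member among the 2930 strongest IDR peaks. RpL24, which forms a bridge between the subunits, followed with 285.4 in the IDR list (chromosome 2L, 13395022 to 13395202), 162.9 in replicate 2 and 98.88 in replicate 4. Those 2 peaks were 180 and 181 bp wide, while the other 19 members' peaks had the most common width of the list, 450 bp. Among all protein-coding genes with an IDR promoter peak, 45.0% had that width.

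Among small-subunit genes, RpS15 had the highest value, 266.2 in the IDR list (chromosome 2R, 16570901 to 16571350), with 137.2 in replicate 2 and 130.1 in replicate 4. RpS6, whose protein is the classical substrate of S6 kinase, had 239.9 in the IDR list (chromosome X, 7900982 to 7901431), 107.3 in replicate 2 and 125.2 in replicate 4. Their ranks in replicates 2 and 4 were 3611 and 3575 for RpS15, and 4932 and 3746 for RpS6. RpS19a, the counterpart of a gene mutated in Diamond-Blackfan anaemia in people, had 227.7 in the IDR list (chromosome X, 16637694 to 16638143), 113.4 in replicate 2 and 99.56 in replicate 4. RpS12, which in Drosophila is needed for the elimination of slowly growing cells by their neighbours, had the lowest value of the bound members, 139.7 in the IDR list, with 83.89 in replicate 2 and 68.81 in replicate 4. Its IDR value was just above the lowest of all IDR promoter peaks (139.5).

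RpS15Aa had 220.7 in the IDR list (chromosome X, 13337210 to 13337659), 127.5 in replicate 2 and 113.3 in replicate 4. RpS10b had 216.4 in the IDR list, 106.3 in replicate 2 and 107.7 in replicate 4. RpS21 had 143.9 in the IDR list (chromosome 2L, 2855936 to 2856385), 76.32 in replicate 2 and 68.42 in replicate 4. The order RpS15Aa, RpS10b, RpS21 was thus the same in each list.

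RpLP0, the base of the ribosomal stalk that recruits elongation factors, had 229.4 in the IDR list (chromosome 3L, 22075835 to 22076284), 93.32 in replicate 2 and 134.3 in replicate 4. RpL41, the smallest ribosomal protein, had 237.4 (chromosome 2R, 24903676 to 24904125), with 119.8 in replicate 2 and 127.9 in replicate 4. RpL8 forms part of the peptidyl transferase centre, and RpL4 and RpL17 line the exit tunnel. RpL8 had 183.0 in the IDR list (chromosome 3L, 2587254 to 2587703), 108.7 in replicate 2 and 96.39 in replicate 4. RpL4 had 159.2 in the IDR list, and RpL17 had 158.5, with 95.12 in replicate 2 and 68.23 in replicate 4. In replicates 2 and 4 RpL4 had 85.49 and 86.82, ranked 6454 and 5986. RpL22 (182.9 in the IDR list) had 93.43 and 93.39 there, ranked 5780 and 5462. RpS3A, on chromosome 4, had 158.0 in the IDR list, 100.8 in replicate 2 and 49.29 in replicate 4, where it ranked 11518. That was the lowest rank of a bound member that had an entry in both replicate lists.

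The spread of the bound members is given for each of the 2 libraries, whose lists have their own scales. In replicate 2 the 21 genes ran from 67.46 through a median of 106.3 to 205.6, with ranks from 2104 to 8397. In replicate 4 the 20 genes with an entry ran from 49.29 through a median of 99.22 to 201.3, with ranks from 1964 to 11518. The gene without one was RpS3, whose protein lies at the entry of the messenger RNA channel: it had 150.5 in the IDR list and 104.1 in replicate 2, ranked 5109, but no promoter entry in replicate 4. RpL30 and RpS7 also ranked better in replicate 2. RpL30 had 154.0 in replicate 2 (ranked 3105) and 64.89 in replicate 4 (ranked 8391). RpS7 had 139.7 in replicate 2 (ranked 3534) and 89.18 in replicate 4 (ranked 5807). RpS23, whose protein helps to keep decoding accurate, ranked better in replicate 4. It had 90.99 in replicate 2 (ranked 5960) and 119.5 in replicate 4 (ranked 3983).

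**Figure D2:**
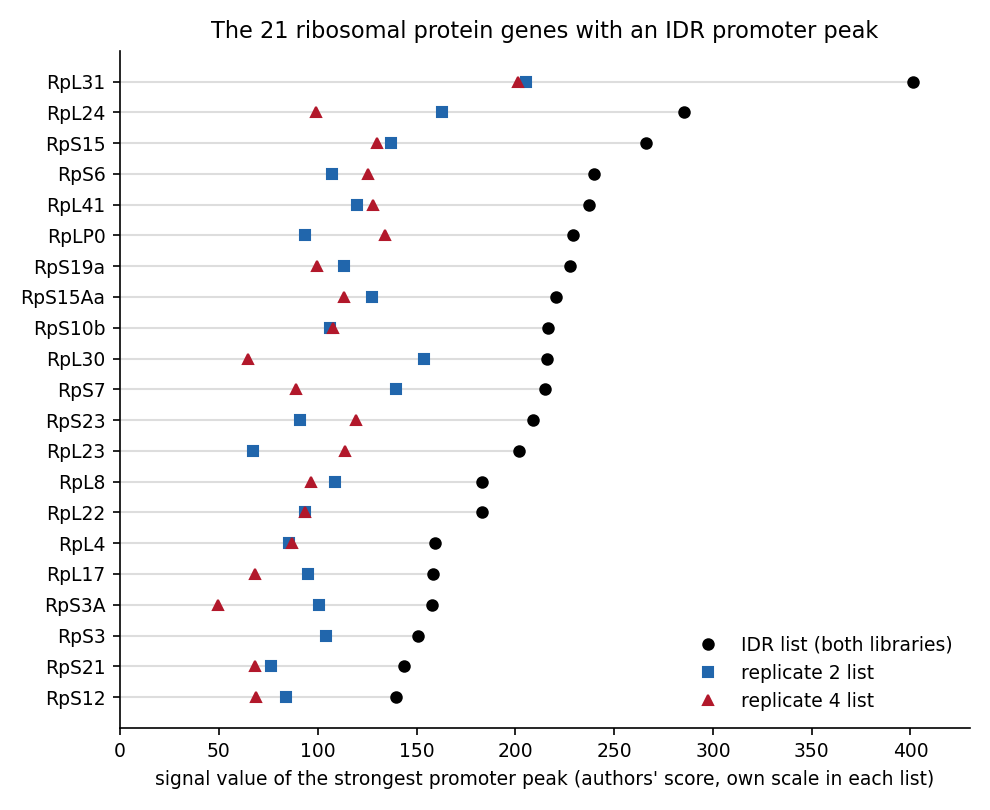
Each row is a ribosomal protein gene with an IDR promoter peak, and the horizontal axis gives the signal value of its strongest promoter peak in the IDR list (black circles), the replicate 2 list (blue squares) and the replicate 4 list (red triangles). Each list has its own scale. RpL31 stands apart at 401.1, and RpS3 has no replicate 4 value. The 2 replicate values shown for RpL23 belong to different summits, since its far summit lay just outside 500 bp in replicate 2.

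No member's peak was in the strongest 20% of the IDR list. Of all 1842 protein-coding genes with an IDR promoter peak, 624 (33.9%) had one among the 1465 strongest peaks, and no member did. The members' median rank was 4486 of 7326, against 2704 for all protein-coding genes, and their median signal value was 214.9, against 315.7. The deposited −log10 q-value reached the list's ceiling at 4 of the 21 members (RpL31, RpL24, RpS15 and RpS6), against 63.5% of all protein-coding genes. The members' values also fell in a narrow band, from 139.7 to 401.1, against 139.5 to 4494 for all genes. In the full replicate lists, which go down to background, the members' medians lay near those of all genes: 93.43 against 83.67 in replicate 2, and 74.29 against 76.01 in replicate 4.

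**Figure D3:**
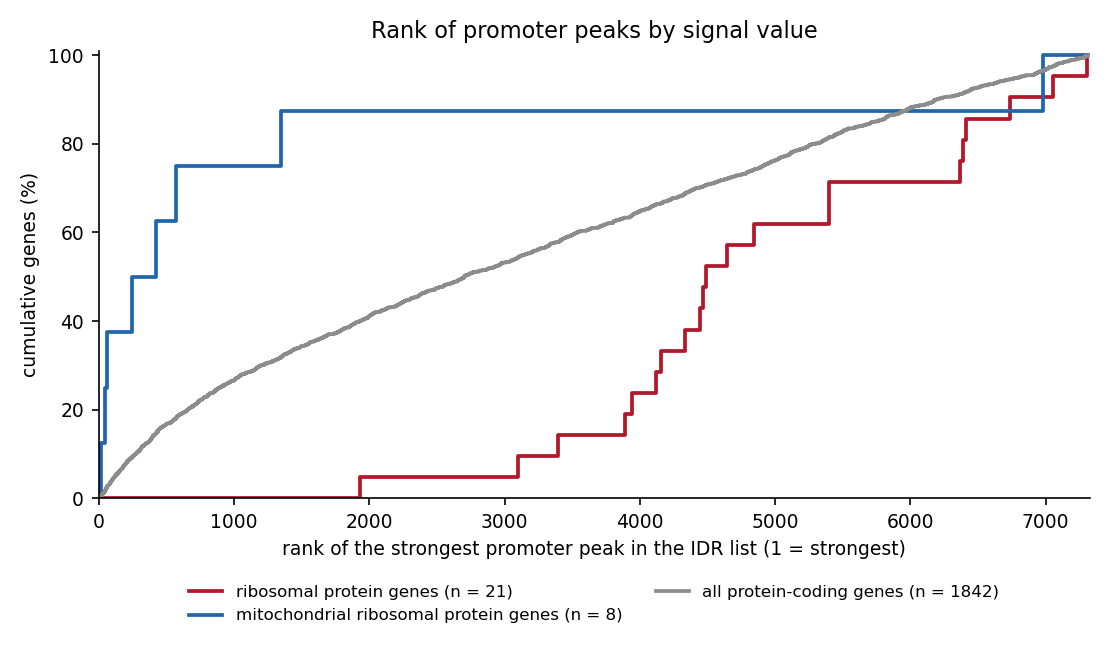
The curves give the cumulative percentage of genes against the rank of their strongest promoter peak in the IDR list, for ribosomal protein genes (red, 21), mitochondrial ribosomal protein genes (blue, 8) and all protein-coding genes (grey, 1842). The red curve leaves 0 at rank 1935, where the grey curve is already near 40%, and its median is 4486.

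The summits of the members lay at the transcription start or just inside the gene. The median summit of the 21 bound members was 34 bp downstream of the nearest start (interquartile range -2 to 88), against 139.5 bp upstream for all protein-coding genes (-261 to 35). Summits were downstream of the start at 13 of 21 members (61.9%), against 28.3% of all protein-coding genes. They lay within 100 bp of a start, on either side, at 16 of 21 members (76.2%), against 23.1%. The other members were RpS15, RpS23 and RpS6, 104 to 124 bp downstream, RpS15Aa, 203 bp downstream, and RpL23. Several genes have more than 1 start, and at RpLP0 the summit lay 32 bp upstream of the nearest but 193 bp downstream of the canonical one. From the canonical start the summit lay 155 bp downstream at RpL17, 165 bp downstream at RpS23 and 41 bp upstream at RpL24. Those of RpLP0 and RpL17 were thus within 100 bp of their nearest start but not of the canonical one.

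Each library placed the summits near the start on its own. In replicate 2, 28 of 39 members with a promoter peak had it within 100 bp (71.8%), against 25.4% of all protein-coding genes, and 26 were downstream (66.7%), against 33.0%. In replicate 4, 27 of 32 were within 100 bp (84.4%), against 26.5%, and 20 were downstream (62.5%), against 32.2%. The members' median was 45 bp downstream in replicate 2 and 12 bp downstream in replicate 4. Among the 30 members in both replicate lists, the summit was further upstream in replicate 4 at 22 and further downstream at 8, with a median shift of -22 bp. The paired shift was not computed over all protein-coding genes, whose median offsets were -112 bp in replicate 2 and -111 bp in replicate 4. In the strongest 7326 peaks of replicate 4 alone the members' median offset was -0.5 bp, against -144 bp for all protein-coding genes.

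**Figure D4:**
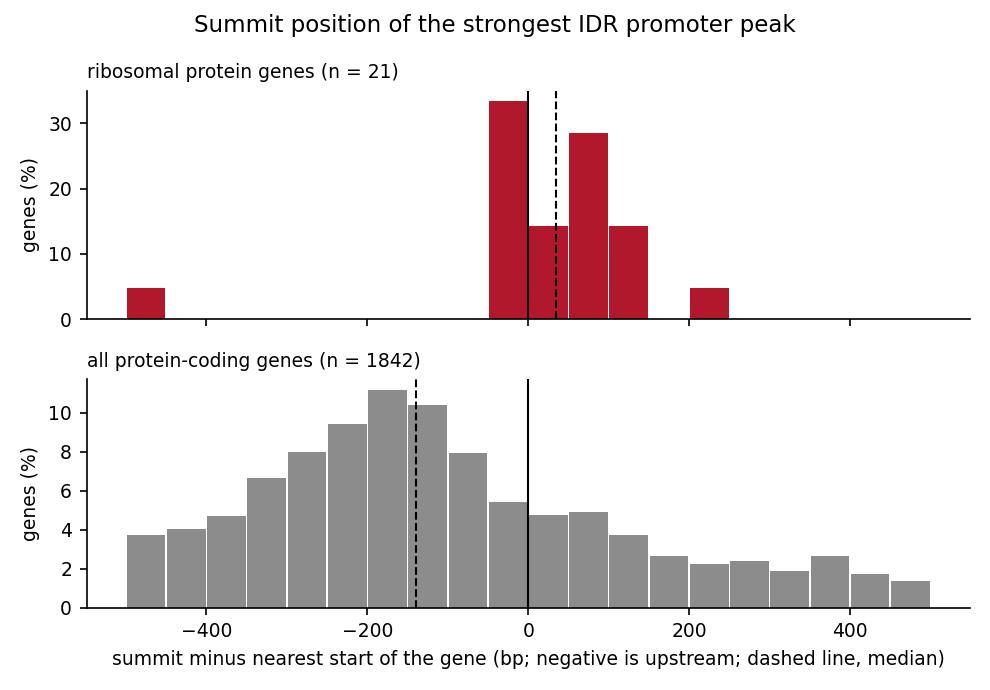
Histograms in bins of 50 bp give the percentage of genes by the distance of the summit from the nearest start of the gene (negative is upstream), for the 21 bound ribosomal protein genes (red, above) and all 1842 bound protein-coding genes (grey, below). Dashed lines are the medians, 34 bp and -139.5 bp, and the isolated red bar far upstream is RpL23.

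Measured from the nearest start, RpS10b had its IDR summit 4 bp upstream (chromosome X, 19597802 to 19598251), and RpS3A and RpL24 each had theirs 2 bp upstream. The summit of RpS7 lay 1 bp upstream (chromosome 3R, 30208724 to 30209173), and that of RpL22 9 bp upstream (chromosome X, 764914 to 765363). Further inside the gene lay those of RpS15 (104 bp), RpS23 (116 bp) and RpS6 (124 bp). The strongest promoter summits of the 2 replicates lay over 100 bp apart at 5 of 30 members: RpL12, RpL5, RpS15Aa, RpS20 and RpL23. The same share over all protein-coding genes was not counted. At RpL23 the gap arose at the 500 bp limit, since its strongest summit lay 504 bp upstream in replicate 2, just outside, and 490 bp upstream in replicate 4.

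RpL23 differed from the other bound members. Its strongest IDR summit lay 499 bp upstream, just inside the 500 bp limit (chromosome 2R, 22853659 to 22854108, signal value 201.8), and only 57 bp upstream of the start of the neighbouring gene CG13531. A second IDR summit lay 207 bp upstream of RpL23, with a signal value of 156.1. Both libraries held both summits. The far one had 110.1 in replicate 2, at 504 bp upstream and so just outside the limit, and 113.9 in replicate 4, at 490 bp upstream. The nearer one had 67.46 in replicate 2 and 79.34 in replicate 4. Another summit, 51 bp downstream of its start, was in the pooled list (133.1), in replicate 2 (58.61) and in replicate 4 (70.77) but did not pass the IDR threshold. A weaker second IDR summit of RpLP0 lay 471 bp upstream (157.3), nearer to CG7130, and the replicate 4 summit of RpL12, which had no IDR peak, lay 493 bp upstream. By the IDR summit nearest to a start, the members farthest inside were RpL23 at 207 bp, RpS15Aa at 203 bp and RpS6 at 124 bp. The nearest outside were RpS28b at 792 bp, RpS19b at 901 bp and RpL10Ab at 1088 bp, with IDR signal values of 489.7, 1527 and 237.1 at those distant summits.

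At 4 of 21 members the strongest peak was also a promoter peak of another protein-coding gene. The same share over all bound protein-coding genes was not counted, so this is not read as a trait of the members. The summit was 216 bp upstream of a start of the sodium channel gene NaCP60E at RpL41, 304 bp upstream of CG7130 at RpLP0, 57 bp upstream of CG13531 at RpL23 and 383 bp upstream of CG3104 at RpS21. With the exception of RpL23, the member's own start was the nearer. The summit of RpS6 was also 4 bp upstream of snoRNA:Or-aca2, which lies within it. Small nucleolar RNAs, which guide chemical changes of ribosomal RNA, lie inside 28 of the 92 members on the same strand. Of those 8 were bound (28.6%, interval 15.3% to 47.1%), and of the 64 without one 13 were (20.3%, interval 12.3% to 31.7%). The intervals overlap, and the share among all protein-coding genes that hold such RNAs was not counted.

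A gene with several annotated starts can be counted at any of them. Of the 48 members with 1 start 10 were bound (20.8%), against 7.64% of all protein-coding genes with 1 start. Of the 44 members with 2 or more starts 11 were bound (25%), against 28.6% of all such genes. On the X chromosome 6 of 14 members were bound (42.9%, interval 21.4% to 67.4%), against 16.3% of all protein-coding genes of that chromosome. On 2L 3 of 19 members were bound (15.8%), against 12.6% of all protein-coding genes there, and on 3R 3 of 23 (13.0%), against 11.9%, both near the background. On 2R 5 of 21 were bound (23.8%), against 12.8%, and on 3L 3 of 14 (21.4%), against 13.7%. The only member on chromosome 4, RpS3A, was bound, against 6.25% of all genes there. These groups are small and their intervals overlap.

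Genes were also paired by name alone. The first pairs below were chosen because 1 gene had an IDR promoter peak, so pairs with none were left out of them. Among those left out were RpS5a and RpS5b, RpL34a and RpL34b, RpL37-1 and RpL37-2, and RpL7 and RpL7-like. Of all protein-coding genes 13.2% had an IDR promoter peak, so an unbound partner is the common case. RpS19a, RpS10b, RpS15Aa, RpL22, RpL24 and RpLP0 had IDR promoter peaks. The genes paired with them by name, RpS19b, RpS10a, RpS15Ab, RpL22-like, RpL24-like and RpLP0-like, had no promoter peak in any of the 4 lists. A -like name need not mean a second copy of the same ribosomal protein. RpS19b, RpS10a and RpL22-like are known for germline expression in Drosophila. RpL24-like corresponds to a yeast factor of large-subunit assembly rather than to a ribosomal protein. Whether expression goes with binding was not tested. The nearest IDR summit was 901 bp from a start of RpS19b, 2578 bp from one of RpS10a and 13273 bp from one of RpS15Ab. It was 23303 bp away at RpL22-like, 126055 bp away at RpL24-like and 1414 bp away at RpLP0-like. RpS14a and RpS14b, adjacent copies whose starts lie 1156 bp apart, both had peaks in both replicate lists without passing the threshold. Their signal values were 74.21 and 62.26 at RpS14a and 61.91 and 43.52 at RpS14b in replicates 2 and 4. The sources used here do not say how reads from near-identical copies were placed, so values at such copies are uncertain.

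Below the IDR threshold, 10 further members had a promoter peak in both replicate lists (10.9%, interval 6.01% to 18.9%), against 7.87% of all protein-coding genes, a share near the background. RpL39 had 51.05 in replicate 2 and 79.77 in replicate 4, and RpL15 had 62.31 and 57.73. RpL5, which carries 5S ribosomal RNA into the ribosome, had 54.92 and 50.24. The summits of these 3 genes lay from 25 bp upstream to 133 bp downstream of a start. RpL12, RpS29, RpLP2 and RpL38 were the weakest of the 10 by mean rank over the libraries, and RpS20 was the strongest in 1 library and weak in the other: 333.4 in replicate 2, ranked 1014, at a narrow peak of 247 bp centred 145 bp upstream, and 44.49 in replicate 4, ranked 12910, with its summit 39 bp downstream.

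A promoter peak was found in replicate 2 and not in replicate 4 at 9 members (9.78%), against 8.23% of all protein-coding genes. The reverse held at 2 members (2.17%), against 4.68%. Both shares lie near the background, with members' intervals of 5.23% to 17.6% and 0.598% to 7.58%. The gene also bound in the IDR list was RpS3, and RpL10, RpL19 and RpL40 had a pooled peak as well. The other 5 had no promoter peak in the pooled list, whatever their rank. RpL3, an essential protein of the peptidyl transferase centre, had 161.5 in replicate 2 (chromosome 3R, 11221747 to 11222182, ranked 2913) with its summit 71 bp downstream. RpS28b had 152.0 exactly at the start (ranked 3156). RpL7A had 123.9 at 26 bp upstream (ranked 4105), and RpS25 had 96.7 at 24 bp upstream (ranked 5557). RpL11 was weak, with 44.05. Replicate 4 alone had weak peaks at RpL10Ab (43.79) and RpLP1 (41.87).

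The promoters of the members held the elements known for this gene class. In the 250 bases before and 50 bases from the canonical start, the TCT initiator stood at 38 of 92 members (41.3%), against 1.45% of all protein-coding genes. With any annotated start it stood at 55 members, against 2.13% of all protein-coding genes. At the canonical start it was found at 12 of 21 bound members (57.1%) and at 26 of 71 unbound ones (36.6%). The DRE was found on either strand in 28 members (30.4%), against 8.94% of all promoters, and in 6 of 21 bound and 22 of 71 unbound members. The core of Motif 1 (GGTCACACT) was in 9 members (9.78%), against 5.86%, and the E-box CACGTG, which Myc and Max bind as a pair, in 11 (12.0%), against 4.25%. TATAAA was in 42 members (45.7%), against 45.3%. GAGAG, bound by the GAGA factor that Trl encodes, was in 16 members (17.4%), against 30.2%, and CAGCTG in 9 (9.78%), against 17.9%. CAGTG was in 46 members (50%), against 46.1%, and in 10 of 21 bound and 36 of 71 unbound members. All words other than the initiator were searched on both strands. The DRE, CACGTG and CAGCTG read the same on both strands, and no word contains another.

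Around the summits themselves the commonest of these words was CAGTG, which is also among the shortest of them, and short words occur more often. In the 201 bp centred on the summit it was present at 15 of 21 bound members (71.4%, interval 50% to 86.2%), against 39.2% of all protein-coding genes with an IDR promoter peak. Among members whose summit lay within 100 bp of a start it was present in 12 of 16, against 39.9% of the 409 other genes with such a summit. The nearest CAGTG was centred a median of 36 bp from the summit at those 15 members, against 55 bp over the 722 promoter summits of all genes that held one. It was nearest at RpS23 (10 bp), RpLP0 (12 bp) and RpS10b (16 bp). In RpS3A it stood 36 bp from the summit and is the word in capitals before the initiator in the stretch printed above. RpL22, RpL24, RpL4, RpS15, RpS15Aa and RpS19a had none. GAGAG was found in 3 of 21 member windows, against 34.0% of all, and TATAAA in 3, against 31.9%. The DRE was in 3 windows (RpS10b, RpS12 and RpS7), against 1.19%. The summit windows of the members had a median of 43.8% G and C, against 37.3% over all, and its part in the word counts was not tested.

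Other genes of translation are set beside the members with the same rule. Rack1, a small-subunit protein without an Rp name, had an IDR promoter peak with a signal value of 156.9, 26 bp downstream of the start, like the weaker members, and sta, the other such gene, had none. Of all protein-coding genes 13.2% had an IDR promoter peak. Of 20 elongation and initiation factor genes 4 were bound (20%): eIF6 (2001), eEF1gamma (306.1), eIF5B (254.6) and eEF1alpha1 (180.6), all upstream of a start. Of 32 ribosome assembly genes 1 was bound (3.12%), the nucleolar GTPase gene Ns2 (1205). Mitochondrial ribosomal proteins, which serve the organelle's own ribosome, had 8 of 73 genes bound (11%), near the share of all protein-coding genes. For the cytosolic genes the median signal value was 214.9 and the median summit lay 34 bp downstream, against 1146 and 202.5 bp upstream for the mitochondrial ones. Not all 8 followed the medians: mRpS25 had 145.6, and the summit of mRpL23 lay 83 bp downstream. No test of that difference was run.

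Genes for factors that bind or control ribosomal protein promoters, or promoters and boundaries more widely, were bound at 9 of 19 (47.4%). Of all protein-coding genes 13.2% were bound. The list was chosen with earlier results of these data known, and the difference was not tested. Trf2 had 422.8 in the IDR list, 234.0 in replicate 2 and 185.2 in replicate 4. Xrp1, the transcription factor gene switched on when a ribosomal protein gene is lost, had 180.0, and its partner Irbp18 had 644.4. Chro had 2668, Trl 688.8, Mnt 444.7, nej 411.6, BEAF-32 188.9 and crp 178.0. The summits of nej and Xrp1 lay near the 500 bp limit, 490 bp downstream and 481 bp upstream of a start. M1BP, Dref, pzg, row, MBD-R2, Myc, Max, Cp190, ZIPIC and mod(mdg4) had no IDR promoter peak.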

How the data were processed

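ChIP-seq peaks of 2 biological replicates (2 and 4) of CG6276-GFP prepupae were analysed. Per the labels, chromatin was sonicated to 200 to 800 bp. Per the deposited documentation, each replicate list came from that library's alignment and 1 further file whose content is not stated, while the pooled list used both alignments, and the IDR list was made from these 3 lists. No aligner, peak caller or depth is given in the sources used here. The authors deposited a signal score and a −log10 q-value per peak, used only to describe and rank peaks within 1 list. The dm6 lists were used, not those on dm3, and positions are dm6 and 1-based. The largest peak end on each chromosome lay within the Release 6 sequence.

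Here summits were assigned to transcript starts within 500 bp (Python 3.11.15, pandas 2.3.3, scipy 1.17.1), which was tested on simulated data. Each gene was described by its strongest promoter peak. Members and gene lists were chosen with earlier results of these data known. All bound members were named, with those just outside the limit and genes paired by name with bound members. Also named were bound genes of the other lists, and unbound members with the best ranks in both replicates. Members named in 1 replicate alone, and the 100 bp that defines a summit close to a start, were chosen after values were seen, as were the unbound genes of the factor list. Of the listed symbols 1, nucampholin, did not match. Shares have 95% Wilson intervals. No test was made across genes, and with 1 group and 2 libraries none was possible between conditions.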

Additional observations from a re-analysis of the deposited data

How the results depend on the processing

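The count of bound members hardly moved with the distance or the start while the share of all protein-coding genes did. It was 21 within 250 bp (9.2% of all genes), 21 with the canonical start alone (10.6%), 21 where the peak itself had to overlap the start (7.08%) and 23 within 1000 bp (16.8%). In the IDR list's stronger 50% it fell to 3 (8.05% of all genes), and it came to 34 in the pooled list (24.5%). With the strongest 7326 entries of 1 library it was 16 in replicate 4 (12.9%) and 26 in replicate 2 (15.4%). The members' median signal value was 158.2 in the pooled list, where all protein-coding genes had 155.3, and from 214.9 to 215.9 with other distances and starts. The median offset was from 25 to 50 bp with other distances, the canonical start or the pooled list. With the strongest 7326 entries of 1 library it was -0.5 bp in replicate 4 and 48.5 bp in replicate 2. Members bound in both replicate lists numbered 30 (20.4% of all genes), and 14 with the strongest 7326 entries of each (10.8%). No paired analysis was possible because there is a single group. Depth is unknown, so a missing peak does not show that a gene was unbound.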
